A study of Mus musculus with 6 samples.

Results

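Granins and the enzymes that turn prohormones into peptides were examined as a set of 9 genes among the 54532 genes of the deposited table. The genes were chosen by name and selected on the read counts of these same libraries, with earlier results in view: the granins Scg2, Chga, Chgb, Scg3, Scg5 and Vgf, and the processing enzymes Pcsk1, Pcsk2 and Cpe. Their difference between the groups is therefore given as a description without a test.

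Granins are acidic proteins of the regulated secretory pathway, the route by which endocrine cells and neurons store peptides in dense-core granules and release them on a signal. Inside the granule, the prohormone convertases cut precursors after pairs of basic residues, carboxypeptidase E removes the exposed basic residues, and an amidating enzyme finishes many of the peptides. In the heart this machinery is best known from atrial cardiomyocytes, which store natriuretic peptides in granules.

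RNA was sequenced from an immortalized line of cardiosphere-derived cells (CDCs), heart cells that grow out of cultured tissue pieces and form floating clusters. The control group of 3 libraries came from such cells at passage 30, and the induced group of 3 libraries came from cells of that passage exposed for 3 days to 10 µM 5-azacytidine, a drug that blocks methylation of DNA, and kept for another 4 weeks in medium with 2% serum. The methods of the study give 2 weeks and another basal medium for this induction. They describe routine passaging of the cells in a medium with more serum, but give no culture time for the control cells that were sequenced, so drug, serum and time in culture cannot be told apart. All 6 libraries shared the C57BL/6 strain, a ventricular origin (the ventricular epicardium of 6-week-old mice in the methods) and a human telomerase transgene carried by a lentivirus under the CMV promoter, whose carriers were selected with puromycin. The labels name 3 separate samples per group without saying whether they were separate cultures, and p-values then measure the spread between these samples only.

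Libraries held 19041133 to 19823369 reads in genes, at which 3 reads correspond to 0.151 to 0.158 CPM, reads per library scaled to a common total. Among 14246 genes with enough reads to be tested, 9225 (64.8%) passed an adjusted p of 0.05 in edgeR's quasi-likelihood test, 4643 (32.6%) higher and 4582 (32.2%) lower in induced cells, and the median log2 fold change was -0.01. A call with a fold of at least 2 was made for 1323 genes in the higher direction (9.29%) and for 1115 in the lower (7.83%). The CDC surface genes Thy1, Eng and Ly6a were expressed in all 6 libraries, and the summed CPM of 6 listed surface genes was 503 to 507 in control and 563 to 596 in induced libraries. Within this sum, mean Thy1 rose from 112.7 to 163.7 CPM and Eng from 359.9 to 392.5, and Ly6a fell from 31.6 to 21.3. Pecam1, Kdr and Kit had too few reads to be tested, and Ptprc, the pan-leukocyte marker, had 0 reads in every library.

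The members lay at very different levels, and 2 of them carried nearly all of the reads. Cpe, the carboxypeptidase, supplied 99.7% to 99.8% of the reads of the 9 genes in control libraries and 96.0% to 96.1% in induced libraries. Scg2 supplied 0.118% to 0.158% and 3.91% to 3.93%. Only Scg2, Cpe and Vgf had enough reads to pass the filter on low counts, Scg2 and Cpe in either group and Vgf through the control group. Their groups of libraries did not overlap, as was the case for 68.6% of all tested genes, and nothing is read from that count, nor from the folds of at least 2, since the genes were chosen on these values. In bulk RNA, more or fewer cells that express a gene and more or less RNA per cell cannot be told apart.

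**Figure D1:**
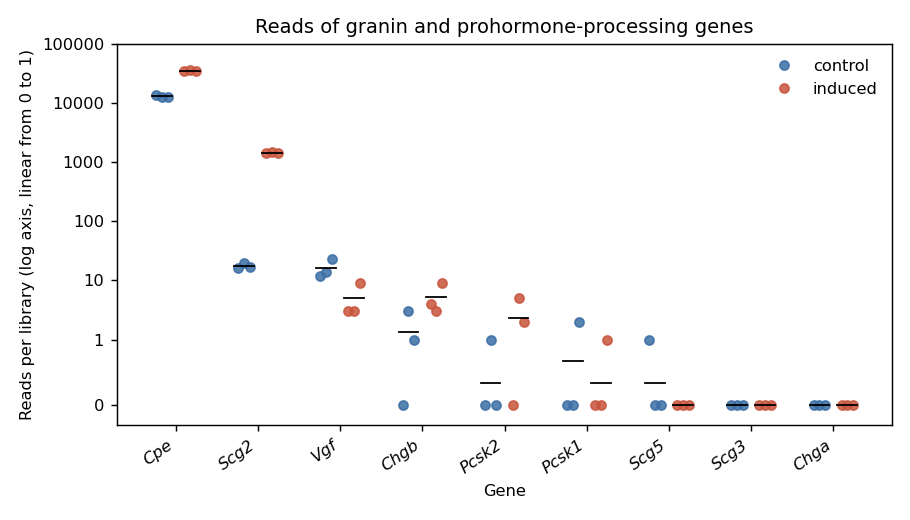
Reads per library (vertical axis, logarithmic above 1 and linear from 0 to 1) of the 9 genes in 3 control (blue) and 3 induced (red) libraries, with a black line at each group mean. Cpe and Scg2 have at least 1411 reads in every induced library, and the other 7 genes stay at 23 reads or fewer in all 6.

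Among the granins, Scg2 showed the widest separation. This gene encodes secretogranin II, the precursor of the peptide secretoneurin (ENSMUSG00000050711, chr1:79434669-79440120, minus strand, 2 exons, GRCm38). It had 16, 20 and 17 reads in the control libraries and 1413, 1494 and 1411 in the induced libraries. Per length, this was 0.319, 0.401 and 0.336 FPKM (reads scaled to gene length and library size) against 29.8, 31.1 and 29.4 FPKM. The lowest induced library thus held far more than the highest control library, and the libraries within each group lay close together. The mean level was 0.893 ± 0.110 in control against 75.8 ± 2.41 CPM in induced cells (SD, n = 3), a log2 fold change of 6.40 (SE 0.10) or 84.3-fold. Of all tested genes, 73 had a larger fitted rise. By FPKM, Scg2 moved from rank 13404 to 13852 among all genes of a control library to rank 1730 to 1900 of an induced library.

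Vgf, a granin-like precursor first found as a gene induced by nerve growth factor (ENSMUSG00000037428, chr5:137026392-137033351, plus strand, 6 exons), lay in the other direction at very low counts. It had 12, 14 and 23 reads in control and 3, 3 and 9 reads in induced libraries. The highest induced library lay 3 reads below the lowest control library, and 2 of the 3 induced libraries were at the 3-read limit. The mean was 0.824 ± 0.288 in control against 0.263 ± 0.181 CPM in induced cells (SD, n = 3), with a log2 fold change of -1.62 (SE 0.49). Without the third control library this was -1.30, and without the third induced library -2.33. Among tested genes, 511 had a larger fitted fall.

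The chromogranins had at most 9 reads in any library. Chga, the classical marker of neuroendocrine granules (ENSMUSG00000021194, chr12:102554969-102565028, plus strand, 8 exons), had 0 reads in all 6 libraries. Chgb, its relative in the same granules (ENSMUSG00000027350, chr2:132781278-132795079, plus strand, 5 exons), had 0, 3 and 1 reads in control and 4, 3 and 9 in induced libraries. The groups met at 3 reads. The ratio of the pooled 16 to 4 reads, scaled to library size, was 4.17 with a 95% exact binomial interval of 1.35 to 17.1, which covers counting error only.

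The remaining granins had 1 read between them. Scg3, which binds chromogranin A and the granule membrane (ENSMUSG00000032181, chr9:75643189-75684056, minus strand, 14 exons), had 0 reads in all 6 libraries. Scg5, the chaperone of the convertase Pcsk2 (ENSMUSG00000023236, chr2:113776362-113829121, minus strand, 7 exons), had 1 read in the first control library and 0 in the other 5. For these genes a level of up to 0.151 to 0.158 CPM per library would not have been detectable.

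Of the prohormone-processing enzymes, only Cpe was abundant. It encodes carboxypeptidase E, which trims basic residues from peptide ends and lies at chr8:64592542-64693054 (ENSMUSG00000037852, minus strand, 12 exons). Control libraries had 13508, 12635 and 12908 reads and induced libraries 34642, 36522 and 34634. This corresponded to 259.9, 243.9 and 246.0 FPKM against 705, 734 and 695 FPKM. Every induced library was above every control library, and the spread within groups was small. The mean was 657.7 ± 22.7 in control against 1857 ± 55.1 CPM in induced cells (SD, n = 3), a log2 fold change of 1.50 (SE 0.04) or 2.82-fold. Of all tested genes, 847 had a larger fitted rise. By FPKM, Cpe was already among the most abundant transcripts of control libraries, at rank 177 to 187 of all genes, and stood at rank 40 to 50 in induced libraries.

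The convertases that act before Cpe in granules were nearly absent. Pcsk1 (ENSMUSG00000021587, chr13:75089826-75134861, plus strand, 14 exons), which makes the early cuts in many prohormones, had 0, 0 and 2 reads in control and 0, 0 and 1 in induced libraries. Pcsk2 (ENSMUSG00000027419, chr2:143546156-143816285, plus strand, 12 exons), which makes later cuts, had 0, 1 and 0 reads in control and 0, 5 and 2 in induced libraries. The pooled ratio for Pcsk2 was 7.30 with a 95% exact binomial interval of 0.937 to 328.9, so neither direction could be given at this depth. Of its exon bases, 4.54% also belong to the antisense genes Pcsk2os1 and Pcsk2os2, and the strand setting of the counting is not given in the sources used here.

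The balance between the members changed with their levels. On the FPKM scale, Cpe exceeded Scg2 by 813.8, 609 and 732 times in the control libraries and by 23.6, 23.6 and 23.7 times in the induced libraries. The order of the 3 tested genes, Cpe above Scg2 above Vgf, was the same in every induced library on this scale. Chgb, which was not tested, lay slightly above Vgf in each of them. It had 0.0775, 0.0574 and 0.172 FPKM against 0.0536, 0.0529 and 0.159 for Vgf, all from 9 reads or fewer. In control libraries the FPKM of Scg2 (0.352 ± 0.0429) and Vgf (0.275 ± 0.0967; SD, n = 3) overlapped.

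Promoter sequences were read for 7 of the 9 genes from RefSeq windows on GRCm38.p6, each covering 250 bases before and 50 bases after an annotated transcript start. The cAMP response element (CRE), the site of the activator CREB, is a known element of granin and convertase promoters, and its letters were searched on both strands. The stretches below carry the longest match of each window and are shown because the match recurs between genes whose read levels differ widely. Capitals mark the full palindrome TGACGTCA, the core TGACGT that it contains, or the half-site TGACG that both contain, and each is written from the gene's own strand.
Scg2, chr1:79440076-79440105, minus strand: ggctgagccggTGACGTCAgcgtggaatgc
Chgb, chr2:132781559-132781588, plus strand: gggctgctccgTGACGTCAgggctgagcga
Pcsk1, chr13:75089768-75089797, plus strand: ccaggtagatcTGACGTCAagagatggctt
Chga, chr12:102554885-102554914, plus strand: ggggcggtcctaTGACGTaatttcctgggt
Scg5, chr2:113829249-113829278, minus strand: aaaggaggtaaaTGACGTtcataggggtcg
Scg3, chr9:75684069-75684098, minus strand: gcgctgggtcgcTGACGccatcctcacgcc
Pcsk2, chr2:143546087-143546116, plus strand, half-site on the other strand: ctggcgggcgcgCGTCAcccgggctggcgc

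The palindrome stood at a like distance from the start in the 3 genes that hold it. Its first letter lay 68 bases before the RefSeq start in Scg2, 72 in Chgb and 78 in Pcsk1. Of these, Scg2 was abundant in induced cells, and Chgb and Pcsk1 were at or near 0 in both groups. The palindrome was found in 3 of the 7 windows and in 1.79% of 32851 mouse windows of this length. The core was found in 5 of 7 and 7.51%, and the half-site in 7 of 7 and 20.8%. These matches are a description of letters, and no binding was measured. In the GENCODE M21 models, whose bounds the deposited table shares, the Scg2 and Chgb stretches fall inside the gene bounds, and the other 5 lie outside them.

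The palindrome was also set against direction over the whole table. Of 368 tested genes with the palindrome in a window, 120 were called higher and 112 lower (63.0%), with a median log2 fold change of 0.01. Over the 10325 tested genes with a window, 3485 were higher and 3392 lower (66.6%), with a median of 0.00. The TATA letters TATAAA were found in 1 of 7 windows (Chga) and in 13.6% of all windows.

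CpG content was computed in the same windows, and no methylation was measured. The observed over expected CpG ratio was 0.856 for Scg2, above that of 83.8% of windows, and 0.854 for Pcsk2, above 83.6%. It was 0.721 to 0.796 for Chgb, Scg3, Chga and Pcsk1, and 0.422 for Scg5. The Scg2 window holds 16 CpG sites and the Pcsk2 window 36.

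**Figure D2:**
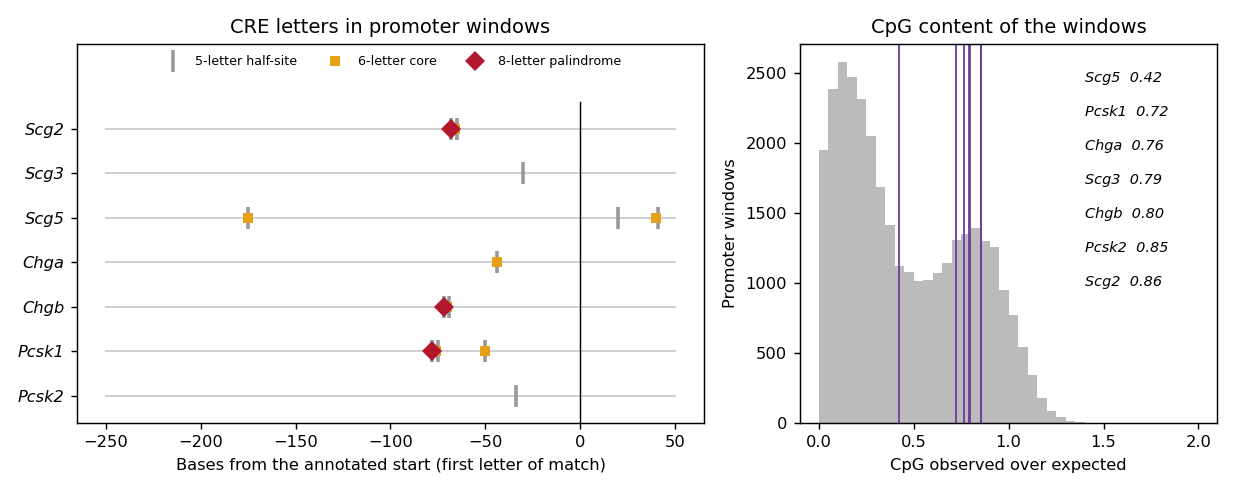
Left, first letter of CRE matches in bases from the RefSeq start for 7 genes (grey, half-site TGACG; orange, core TGACGT; red, palindrome TGACGTCA). Right, observed over expected CpG in 32851 windows (grey bars, number of windows) with 1 vertical line for each of the 7 genes, from 0.42 in Scg5 to 0.86 in Scg2.

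Other enzymes that convert and trim precursors were taken from a list of 18 genes, 16 of which were tested. Of these, 9 rose, 4 fell and 3 were not called (81.2% called against 64.8% of all tested genes), with a median log2 fold change of 0.49 against -0.01. Unlike Pcsk1 and Pcsk2, Furin and its closest relatives act chiefly in the constitutive secretory pathway and are made by many cell types. Furin had 161.8 ± 5.03 CPM in control and 161.1 ± 4.95 in induced cells (SD, n = 3), a log2 difference of -0.01 (SE 0.05, adjusted p = 0.926 in edgeR).

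The convertases that rose were Pcsk5 and Pcsk6. Pcsk5, which cleaves growth factor precursors such as those of the TGF-beta family, had 8, 6 and 8 reads in control and 396, 416 and 384 in induced libraries. The induced libraries stood far above the control libraries, with a log2 fold change of 5.80 (SE 0.17, adjusted p = 2.06e-15 in edgeR). Pcsk6, a relative that acts on similar precursors at the cell surface, had 374, 430 and 383 against 1488, 1426 and 1365 reads, a log2 fold change of 1.91 (SE 0.07, adjusted p = 2.15e-14 in edgeR). Another gene shares 3.01% of its exon bases.

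These changes altered the make-up of the convertase transcripts per length. The summed FPKM of Furin, Pcsk4, Pcsk5, Pcsk6 and Pcsk7 was 28.8 to 30.0 in control and 40.6 to 42.7 in induced libraries. Pcsk1 and Pcsk2 together gave at most 0.0331 FPKM in any library. Furin made up 59.2% to 60.6% of the former sum in control and 41.3% to 42.8% in induced libraries. The share of Pcsk6 was 12.3% to 14.5% in control and 33.9% to 35.7% in induced libraries, and that of Pcsk5 was 0.112% to 0.149% and 5.28% to 5.63%. The level of Pcsk5 per length depends on the gene model, since the table gives it 9346 bases and GENCODE M21 14447 exon bases. None of these ranges overlapped.

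Among Cpe and its listed relatives Cpd, Cpm, Cpz, Cpn1, Cpxm1 and Cpxm2, Cpe was the most abundant in every library on the FPKM scale. Cpd, which trims peptides in the trans-Golgi network of most cells and is named here after its values were seen, had 33.6 FPKM in control and 74.6 in induced cells and rose by a log2 ratio of 1.14 (adjusted p = 3.61e-12 in edgeR). The ratio of Cpe to Cpd in FPKM was 7.32 to 7.58 in control and 8.97 to 9.91 in induced libraries. Cpm, a membrane-anchored relative, rose from 0.538 to 1.37 CPM (log2 ratio 1.33, SE 0.36, adjusted p = 0.00342 in edgeR). Cpxm1, a relative without known enzyme activity that was also singled out after its values were seen, fell by 1.10.

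The next step after carboxypeptidase trimming is amidation by Pam. Pam had 307.7 ± 11.9 CPM in control and 411.5 ± 13.5 in induced cells (SD, n = 3) and rose by a log2 ratio of 0.42 (SE 0.05, adjusted p = 2.95e-07 in edgeR). Cpe exceeded Pam by 9.44 to 9.96 times in FPKM in control and by 20.5 to 20.7 times in induced libraries. Pcsk1n, the precursor of an inhibitor of Pcsk1, had 13 reads in control and 6 in induced libraries and was not tested.

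**Figure D3:**
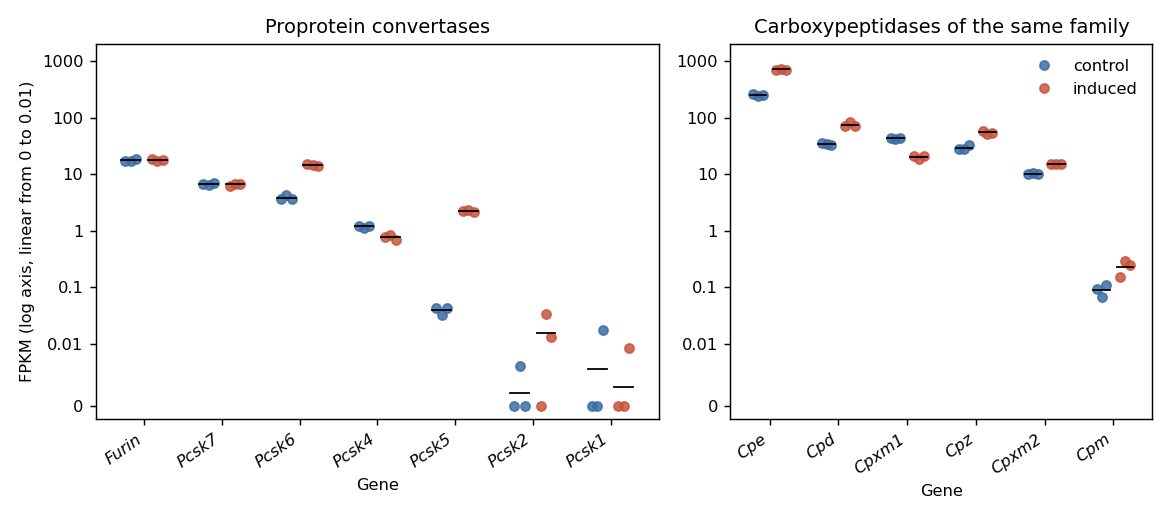
FPKM per library (vertical axes, logarithmic above 0.01 and linear from 0 to 0.01) of proprotein convertases (left) and of Cpe with 5 related carboxypeptidases (right) in 3 control (blue) and 3 induced (red) libraries, with a black line at each group mean. Pcsk5 and Pcsk6 stand higher in induced libraries, Furin lies at 17.5 FPKM in both groups, and Pcsk1 and Pcsk2 stay at or below 0.0331 FPKM. Cpe is above the 5 other carboxypeptidases shown.

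Precursors of secreted peptides and hormones formed a list of 59 genes, and which enzymes process each of them was not examined. Only 12 had enough reads to be tested, and 22 had 0 reads in all 6 libraries. Of the 12, 7 rose, 4 fell and 1 was not called (91.7% called against 64.8% of all tested genes), with a median log2 fold change of 0.43 against -0.01. The 47 untested precursors held 87 reads in control and 153 in induced libraries in all. The tested precursors are mainly growth factors, kinin and vascular hormones, and most neuropeptide precursors of the list were untested.

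Adm, the precursor of the vasodilator adrenomedullin, had 1337, 1311 and 1374 reads in control and 2561, 2594 and 2576 in induced libraries, with a log2 fold change of 1.00 (SE 0.05, adjusted p = 3.46e-12 in edgeR). Bdnf, a neurotrophin that is cut from a larger precursor, rose from 42.7 to 85.7 CPM, also by 1.00 (adjusted p = 7.21e-12 in edgeR), and 14.4% of its exon bases belong to another gene as well. Kng1, which encodes kininogen, rose from 0.842 to 9.02 CPM (log2 ratio 3.41, SE 0.20, adjusted p = 4.16e-11 in edgeR), a value that is uncertain because it may share reads with its near-identical copy Kng2. Stc1, a secreted glycoprotein hormone, fell from 280.9 ± 4.72 to 93.4 ± 1.25 CPM (SD, n = 3) with a log2 ratio of -1.59 (SE 0.05, adjusted p = 2.47e-15 in edgeR). The natriuretic peptides of cardiac granules, Nppa and Nppb, had 0 reads in control libraries and 4 and 2 reads in the 3 induced libraries together.

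Granule formation and release was represented by 58 genes, of which 39 were tested. Of these, 23 rose, 10 fell and 6 were not called (84.6% called against 64.8% of all tested genes), with a median log2 fold change of 0.40 against -0.01. Ptprn2, Cadps2, Snap25 and Rph3a, all components of neuroendocrine exocytosis, had 0 reads in every library. The largest changes among listed genes that reached a mean of 1 CPM in either group were split in direction.

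Ptprn, a membrane protein of dense-core granules, had 950, 972 and 1031 reads in control and 114, 107 and 127 in induced libraries. The induced libraries thus lay well below all control libraries, and the log2 fold change was -3.02 (SE 0.08, adjusted p = 1.08e-15 in edgeR). Rab3c, a small GTPase of secretory vesicles, fell from 4.50 to 0.703 CPM (log2 ratio -2.67, SE 0.26, adjusted p = 4.91e-08 in edgeR). Syt1, the calcium sensor of fast release, had 29, 26 and 31 reads in control and 2, 0 and 0 in induced libraries (adjusted p = 8.32e-07 in edgeR). The pooled control level was 41.3 times the induced level, with a 95% exact binomial interval of 11.1 to 346.1. Rims1, a scaffold of release sites, had 4, 1 and 0 reads in control and 33, 31 and 25 in induced libraries (log2 ratio 4.11, SE 0.54, adjusted p = 2.44e-06 in edgeR).

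Enzymes that cleave released peptides at the cell surface or nearby formed a list of 12 genes, all tested. Of these, 7 rose, 3 fell and 2 were not called (83.3% called against 64.8% of all tested genes), with a median log2 fold change of 0.38 against -0.01. Dpp4, which removes dipeptides from peptide ends, had 49, 45 and 39 reads in control and 231, 266 and 257 in induced libraries (log2 ratio 2.56, SE 0.14, adjusted p = 1.62e-11 in edgeR). Enpep, an aminopeptidase that cleaves angiotensin peptides, rose by 1.91 (adjusted p = 1.27e-05 in edgeR) from under 1 CPM. Mme, or neprilysin, which degrades natriuretic peptides among others, fell from 71.1 ± 2.26 to 22.8 ± 1.58 CPM (SD, n = 3) with a log2 ratio of -1.64 (SE 0.06, adjusted p = 6.77e-14 in edgeR).

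Regulators of granin genes formed the last list. REST represses many neuronal and granin genes outside the nervous system, and CREB with its coactivators binds the CRE. Of 19 listed genes of both systems, all tested, 1 rose, 8 fell and 10 were not called (47.4% called against 64.8% of all tested genes), with a median log2 fold change of -0.13 against -0.01. Without the second induced library, 12 of them fell. Rest itself had 1247, 1308 and 1284 reads in control and 1032, 1214 and 1112 in induced libraries, a log2 difference of -0.13 (SE 0.06, adjusted p = 0.0584 in edgeR). It was called with library totals in place of scaling factors (adjusted p = 0.0237) and without the second induced library (adjusted p = 0.00336).

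The called regulators changed by less than 1 on the log2 scale. Crtc1, a coactivator of CREB, fell by 0.90 (SE 0.06, adjusted p = 7.47e-10 in edgeR). Egr1, a transcription factor induced by many signals, fell by 0.39 (adjusted p = 3.04e-06 in edgeR), and Hdac2, a histone deacetylase, by 0.36 (adjusted p = 1.80e-05 in edgeR). Rcor3, of the family of REST corepressors, rose by 0.48 (adjusted p = 3.07e-05 in edgeR).

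**Figure D4:**
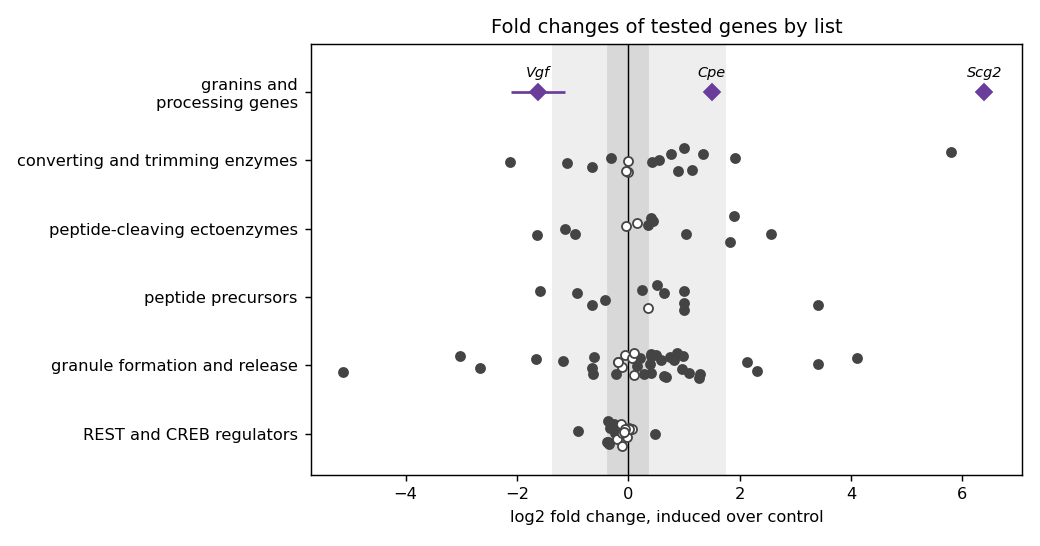
Log2 fold change, induced over control, of the 3 tested members (purple diamonds, bars ± 1 SE) and of the tested genes of 5 lists (filled, adjusted p under 0.05; open, not called). Grey bands hold the middle 50% and 90% of all 14246 tested genes and the black line their median. Scg2 at 6.40 and Vgf at -1.62 lie outside both bands, and Cpe at 1.50 lies inside the wider one. The REST and CREB regulators lie between -0.90 (Crtc1) and 0.48 (Rcor3).

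Markers of other cells that make granins or granules were summed in each library, and their part in the members' values was not tested. Of 21 neuronal and neuroendocrine markers, 6 were tested, 3 higher and 3 lower, and their summed CPM was 138 to 145 in control and 79.6 to 88.5 in induced libraries. The defining markers Th, Chrna3, Insm1, Neurod1, Isl1 and Elavl4 had 0 reads throughout. Of 14 cardiomyocyte markers, 5 were tested, 3 higher and 0 lower, and the sum was 15.6 to 18.5 in control and 69.0 to 71.1 CPM in induced libraries. The sum of 9 leukocyte markers was 21.7 to 24.1 and 11.3 to 13.1 CPM, with 6 of them at 0 reads, and that of 5 Schwann cell markers was 1.02 to 1.52 and 1.84 to 2.20 CPM, with Sox10 and Foxd3 at 0. The neuronal and leukocyte sums were thus lower and the cardiomyocyte and Schwann cell sums higher in induced libraries.

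The genes with the pattern most like that of each tested member were found by the distance between log2 CPM values centred on their mean over the 6 libraries. Nearest to Scg2 were Pdpn (distance 0.166), a membrane glycoprotein that went from 0.219 to 41.9 CPM, and Efemp1 (0.193), a matrix protein with 0.0508 and 31.8 CPM. Nearest to Cpe were Cpq (0.0600), a secreted carboxypeptidase of another family with 83.7 and 234.2 CPM, and Plxna2 (0.0668), a semaphorin receptor with 23.8 and 68.2 CPM. Nearest to Vgf were 1700003F12Rik (0.188), with 5.89 and 3.00 CPM, and A130051J06Rik (0.318), with 1.23 and 0.596 CPM, both farther away than the neighbours of Cpe. With 6 libraries in 2 groups, such closeness mostly states a like difference between the groups on the log2(CPM + 0.5) scale. The added 0.5 compresses differences at low counts, and the fitted log2 fold changes were less alike there. They were 7.54 for Pdpn and 9.13 for Efemp1, which had 3 control reads in all, against 6.40 for Scg2. For 1700003F12Rik and A130051J06Rik they were -0.97 and -1.03, against -1.62 for Vgf. Those of Cpq and Plxna2, 1.48 and 1.52, lay close to the 1.50 of Cpe.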

How the data were processed

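RNA sequencing libraries of 3 control and 3 induced samples, grouped by their titles, were analysed. The authors deposited raw read counts per gene and, in the same table, FPKM values. The submitters' processing notes name HISAT2 2.0.5, featureCounts 1.5.0-p3, DESeq2 1.16.1 and mm10 without saying which file each made, and the methods name DESeq with 2 replicates per condition, where the table holds 3 libraries per group. The labels give the NEBNext Ultra kit, and the methods give that kit or an oligo(dT) method of BGI without assigning libraries to either. Strand use in counting is not given in the sources used here, so overlapping and antisense genes cannot be told apart. The authors' fold changes, p-values and Gene Ontology tables were not used.

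The test was edgeR 4.0.16 under R 4.3.3. The filter filterByExpr (at least 10 reads, at least 15 in total) left genes with 99.9% of the reads. Counts were scaled by TMM (factors 0.980 to 1.02) and compared with the two-sided quasi-likelihood test, Benjamini-Hochberg adjusted over all 14246 tested genes. CPM are scaled by TMM. FPKM were used for levels between genes. Distances used log2(CPM + 0.5). Steps were tested on simulated data. Every pair of libraries of a group differed beyond sampling noise (chi-square over its degrees of freedom, 2.56 to 8.91), and none were merged. Intervals and the limit of 3 reads cover counting error only.

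Members and lists were chosen with earlier results of these data known. Named genes were all members, Furin, Pam, Pcsk1n and Rest, the 2 genes nearest to each tested member, and from each list up to 4 called genes with the largest absolute log2 fold change whose groups did not overlap and reached 1 CPM in either group; 2 of the genes so selected are not reported here. Marker genes and neighbours along the chromosome are given by list or position. Coordinates are those of the table. Of 54532 genes, 54409 were found in GENCODE M21, and 98.3% of these had the same start and end. Promoter windows came from RefSeq (GRCm38.p6) for 7 of 9 members, without Cpe and Vgf.

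The alternatives were leaving out the filter, a stricter one (1 CPM in 3 libraries, mean count 10), library totals in place of TMM, size factors by median ratio, DESeq2 1.42.0, limma 3.58.1 on log2(FPKM + 1) and log2(FPKM + 0.1), an adjusted p of 0.01, a replicate block and leaving out each library.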

Additional observations from a re-analysis of the deposited data

How the results depend on the processing

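The direction of Scg2, Cpe and Vgf was the same under every alternative run, and no named gene or list median reversed. Adding a pseudocount to FPKM shrank the low genes: the log2 fold change of Scg2 was 4.52 in limma with log2(FPKM + 1) and 6.07 with log2(FPKM + 0.1), and that of Vgf -0.23 and -1.01, against 6.40 and -1.62. Leaving out each library in turn gave 6.34 to 6.50 for Scg2 and -2.33 to -1.30 for Vgf, whose value rests on 49 and 15 reads. Vgf was not tested under the stricter filter. Of 524 values of 35 named genes, 513 kept direction and call. The other 11 crossed the threshold, all at Rest, A130051J06Rik, Plod3 or Ap1s1. The median of the peptide precursors was 1.01 without a filter and 0.57 to 0.82 without control library 1 or 3 or induced library 3, and that of the converting enzymes 0.29 and of the granule genes 0.25 with log2(FPKM + 1).

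The number of genes called over the table was 7783 to 9765 (DESeq2, 8593), and no list count moved by over 1.5 times. Library totals alone shifted the median of all genes by -0.04. Same-numbered libraries did not deviate together (correlations -0.03, -0.03 and 0.03). This gave no sign of pairing by number, but 3 libraries per group cannot exclude it. With a replicate block, 9063 genes were called, and Scg2, Cpe and Vgf had log2 fold changes of 6.40, 1.50 and -1.65. Depth limits the 6 members with 0 to 9 reads per library, where a ratio could be given for Chgb and Pcsk2 only, with a counting interval above 1 for Chgb and across 1 for Pcsk2.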

Other observations

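The tested genes next to the 3 tested members along the chromosome were chosen by position after the members' values were seen. On either side of Scg2, Kcne4, a potassium channel subunit whose gene lies 614.6 kb away, rose from 69.3 ± 1.48 to 261.3 ± 5.51 CPM (SD, n = 3) with a log2 ratio of 1.92 (SE 0.05, adjusted p = 4.15e-16 in edgeR). Ap1s3, a clathrin adaptor subunit 166.8 kb away, rose from 2.85 to 5.69 CPM (log2 ratio 1.00, adjusted p = 3.36e-05 in edgeR). Beside Cpe, the directions differed. Tll1, a metalloprotease of the BMP1 family 386.3 kb away, fell from 2.97 to 0.123 CPM (log2 ratio -4.52, adjusted p = 2.56e-08 in edgeR), and Msmo1, an enzyme of sterol synthesis 25.1 kb away, rose by a log2 ratio of 0.37 (adjusted p = 4.91e-06 in edgeR).

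Beside Vgf, Ap1s1, 1.64 kb away, differed by -0.11 (adjusted p = 0.138 in edgeR) and Plod3, 29.7 kb away, by -0.10 (adjusted p = 0.0937 in edgeR). Both passed the threshold with library totals alone (adjusted p = 0.0409 and 0.0197) and without the first induced library (adjusted p = 0.0469 and 0.0166), at differences of -0.14 to -0.15 on the log2 scale.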
